A study of Mus musculus with 3 samples.

Results

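Binding of the transcription factors BACH2 and JunD was examined around Prdm1 and Irf4, which encode the regulators Blimp-1 and IRF4, in mouse induced regulatory T cells (iTreg cells). All BACH2 and JunD peaks that touched a fixed stretch around each gene were taken, with no reference to their strength. The Prdm1 window was the 300 kb of mm9 chromosome 10 from 44.05 to 44.35 Mb, and the Irf4 window was the 140 kb of mm9 chromosome 13 from 30.78 to 30.92 Mb. Together they held 29 of the 14370 peaks in the 2 lists. Of these 29, 21 were among the 9133 BACH2 peaks and 8 were among the 5237 JunD peaks.

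The cells were wild-type C57BL/6 splenic CD4+ T cells from mice 8 to 12 weeks old. They were sorted, stimulated through CD3 and CD28 and kept with TGF-β for 4 days, and then crosslinked for chromatin immunoprecipitation and sequencing (ChIP-seq). BACH2 and JunD each had 1 library, and both libraries came from cells of this same kind, so no value below has a replicate error. These are regulatory T cells made in culture rather than taken from an animal, and the number of mice behind a library is not stated in the labels. The files hold peaks and no expression values, so the labelled cell type could not be checked against its marker genes. The JunD antibody is given under 2 catalogue numbers, and the labels do not say which of them was used.

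Blimp-1 is a zinc finger repressor that marks effector regulatory T cells, the activated regulatory T cells that enter tissues and make IL-10. IRF4 is a factor induced by antigen receptor signals that is needed for the effector state of these cells and acts upstream of Prdm1. IRF4 binds many of its sites together with AP-1 dimers, which are made of JUN proteins such as JunD and partners such as BATF. BACH2 is a repressor of the same leucine zipper class as the AP-1 subunits, recognises related DNA sequences, and is known to hold down Prdm1 in B and T cells. The windows therefore show where a repressor of the effector programme and an AP-1 subunit had peaks around 2 genes of that programme.

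In the RefSeq gene table, which is for a later mouse build, Prdm1 stands between Atg5, which encodes an autophagy protein, and Prep, which encodes a peptidase. Irf4 stands between Dusp22, which encodes a phosphatase, and Exoc2, which encodes a subunit of the exocyst. Gene models of mm9 were not used here, so the peaks below are given by position and are not placed in promoters, exons or introns. A peak at Prdm1 or at Irf4 means one in the window of that gene. Whether it lies in or acts on a neighbouring gene was not determined. The bases before the start of each gene are shown to give the promoter sequence of both members. They come from RefSeq on build GRCm38.p6, at chr10:44458749-44458998 on the minus strand for Prdm1 and chr13:30748983-30749232 on the plus strand for Irf4. These coordinates cannot be set against the mm9 peaks. Both are written 5′ to 3′ and end at the last base before the annotated start. Capitals mark TGANTCA, a pattern wider than the core AP-1 sequence because it allows any base in the middle. The pattern was searched on both strands, where it has the same form.
Prdm1: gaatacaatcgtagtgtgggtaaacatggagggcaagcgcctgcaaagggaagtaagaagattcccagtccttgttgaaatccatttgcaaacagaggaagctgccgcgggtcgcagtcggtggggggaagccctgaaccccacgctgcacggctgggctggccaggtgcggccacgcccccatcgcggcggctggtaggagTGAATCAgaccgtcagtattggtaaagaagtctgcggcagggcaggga
Irf4: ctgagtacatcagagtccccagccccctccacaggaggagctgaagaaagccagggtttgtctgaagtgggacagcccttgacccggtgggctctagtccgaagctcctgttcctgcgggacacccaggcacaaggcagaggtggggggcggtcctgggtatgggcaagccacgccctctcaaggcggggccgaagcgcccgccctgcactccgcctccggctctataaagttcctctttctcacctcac
The Prdm1 stretch held 1 match, TGAATCA, from 48 to 42 bases before the start, whose middle base is not that of the core AP-1 sequence. The Irf4 stretch held no match. Among all 32851 promoters of the table, 6.75% held the pattern in the same 250 bases. A match of letters is no evidence of binding, and the peaks were not tied to these bases.

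BACH2 peaks were listed at many positions around Prdm1, and a JunD peak at a single one. The lists end at unlike values, a −log10 q of 1.31 for BACH2 and a score of 50 for JunD. The numbers of peaks of the factors therefore cannot be compared directly. The Prdm1 window held 10 BACH2 peaks, 5 of them in the strongest quintile of the BACH2 list by −log10 q, which holds 20.0% of all BACH2 peaks. It held 1 JunD peak, which was among the weakest of its list. A group of 7 of the 10 BACH2 peaks lay within 20.4 kb, from 44149367 to 44169812. Their summits were 99.5 to 119.7 kb from the start of the window.

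Around Irf4, both factors were found at several positions. The Irf4 window held 11 BACH2 peaks and 7 JunD peaks in less than 50% of the length of the Prdm1 window. The strongest BACH2 quintile took in 3 of the 11, and the strongest JunD quintile took in 2 of the 7. That JunD quintile also holds 20.0% of all JunD peaks. The strongest BACH2 peak of both windows, by −log10 q and by fold, and the strongest JunD peak of both windows lay in the Irf4 window, 51.2 kb apart from summit to centre.

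**Figure D1:**
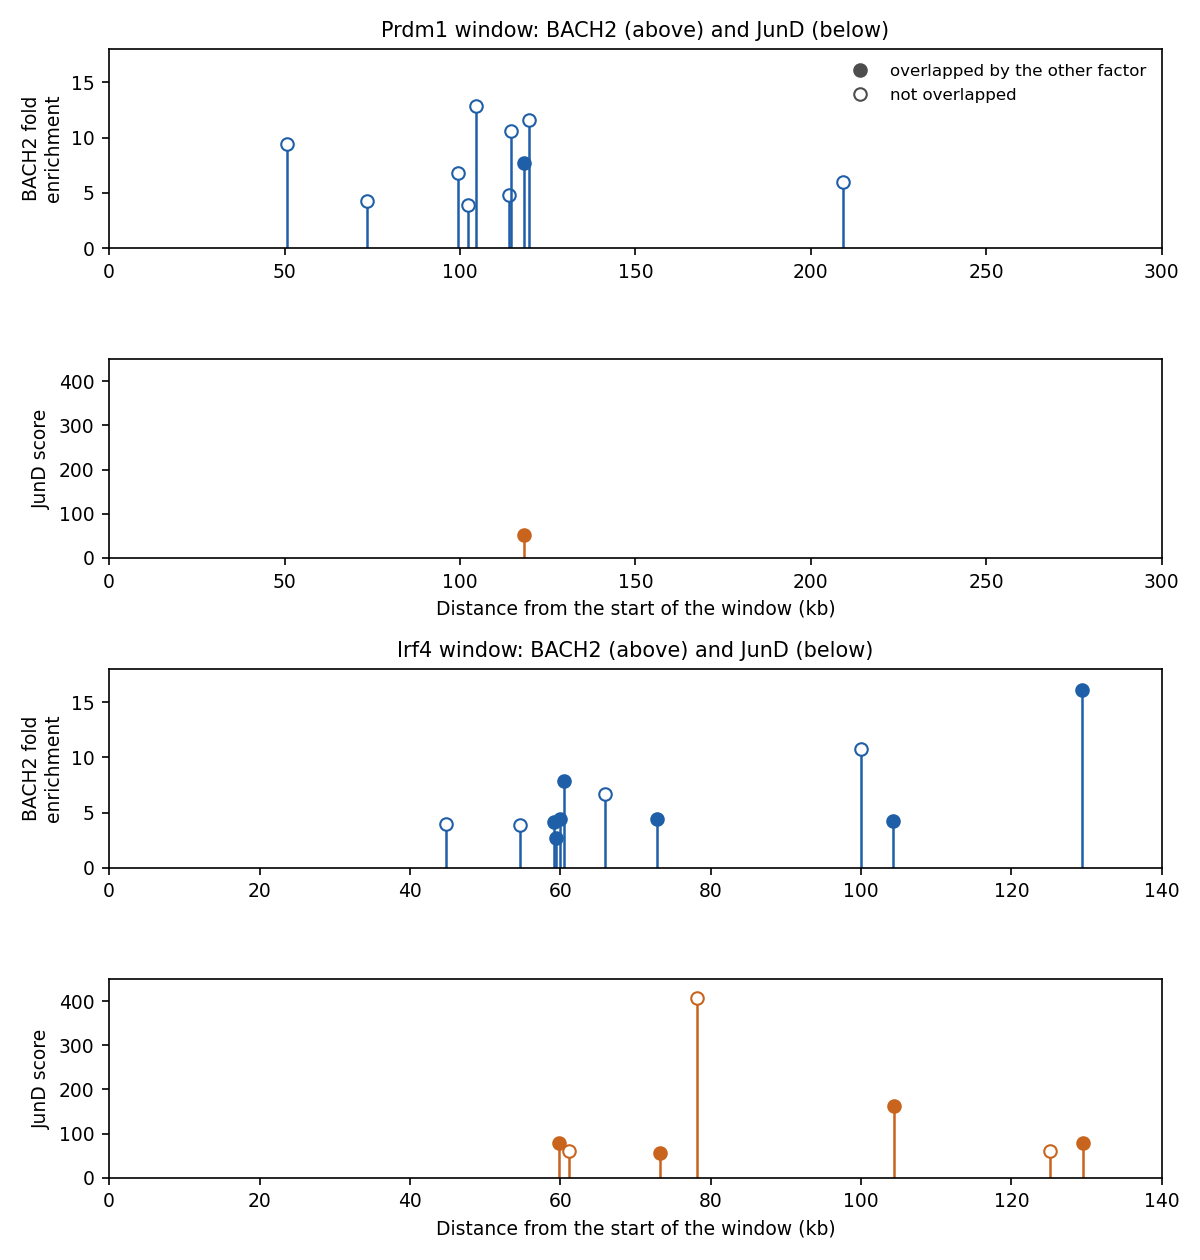
Peaks of BACH2 (fold enrichment) and JunD (the authors' score) against the distance in kb from the start of the Prdm1 window (upper pair of panels) and the Irf4 window (lower pair). Filled points are peaks overlapped by the other factor and open points are not; 1 of 10 BACH2 peaks is filled at Prdm1 and 7 of 11 at Irf4, and the tallest JunD peak, with a score of 407, is open.

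The BACH2 peak with the highest −log10 q at Prdm1 stood apart from the group, at 44100285 to 44100951. It had a fold enrichment of 9.44 over the caller's background and a −log10 q of 56.0, which ranked 771 of 9133. Its nearest JunD peak was 66.9 kb away, so it was a BACH2 site with no JunD peak in its neighbourhood. The next peak, at 44123247 to 44123625, was weaker, with a fold of 4.22 and a −log10 q of 11.4 (rank 4704), just under the list median of 11.8. At the far side of the window, a peak at 44259119 to 44259385 was also near the median, with a fold of 5.94 and a −log10 q of 11.6 (rank 4682). A stretch of 89.3 kb with no BACH2 peak separated it from the group.

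Within the group of 7, strong and weak BACH2 peaks lay side by side. The peak with the highest fold of the Prdm1 window was at 44154442 to 44154851, with a fold of 12.8 and a −log10 q of 48.1 (rank 963). It was preceded by a peak at 44149367 to 44149637 with a fold of 6.77, which lay near the middle of the list by −log10 q (12.9, rank 4241). Between these was the BACH2 peak with the lowest −log10 q of both windows, at 44152170 to 44152331, with a fold of 3.86 and a −log10 q of 2.83 (rank 8965). A pair only 78 bp apart followed. Its first member, at 44163903 to 44164090, was weak, with a fold of 4.79 and a −log10 q of 6.06 (rank 7370). Its second, at 44164169 to 44164659, was strong, with a fold of 10.6 and a −log10 q of 35.4 (rank 1470). The group ended with a strong peak at 44169440 to 44169812, which had a fold of 11.6 and a −log10 q of 44.9 (rank 1083).

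The single place where both factors met at Prdm1 was the remaining member of the group. The BACH2 peak at 44167951 to 44168634, 684 bp wide, had a fold of 7.70 and a −log10 q of 35.4 (rank 1472). The JunD peak at 44167891 to 44168362 shared 412 bp with it, which was 87.3% of the JunD peak, and the BACH2 summit lay 31 bp from the JunD centre. The positions thus matched closely, with BACH2 in its strongest quintile and JunD in its weakest. The JunD score was 51.5, against a lowest score in the list of 50, and ranked 5056 of 5237. The strong BACH2 peak at 44169440 lay 1.08 kb beyond this JunD peak and was not overlapped.

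**Figure D2:**
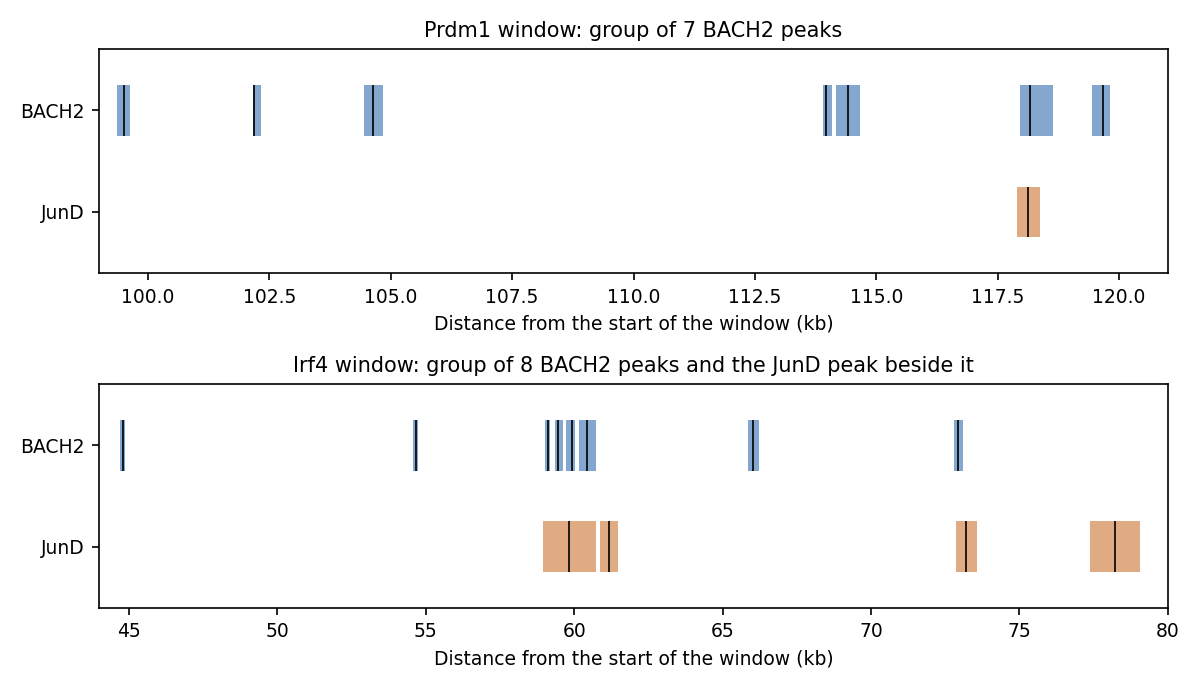
Extent of each peak (boxes) of BACH2 and JunD in the most crowded stretch of each window, against the distance in kb from the window start; black lines mark BACH2 summits and JunD centres. At Prdm1 1 of the 7 BACH2 peaks lies over a JunD peak, and at Irf4 4 BACH2 peaks lie within 1 JunD peak of 1803 bp.

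The strongest BACH2 site of the Irf4 window carried peaks of both factors. The BACH2 peak at 30909211 to 30909698 had a fold of 16.1 and a −log10 q of 157, which ranked 58 of 9133. The JunD peak at 30909222 to 30909790 shared 477 bp with it, and summit and centre were 54 bp apart. JunD here was of middling strength, with a score of 79.7 (rank 2730) against a list median of 81.6. A BACH2 peak near the top of its list was thus paired with a JunD peak in the middle of its own.

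Another shared site of the Irf4 window combined a strong JunD peak with a BACH2 peak of middle rank. The JunD peak at 30884061 to 30884654 had a score of 162 (rank 805), in the strongest quintile of its list. The BACH2 peak inside it, at 30884181 to 30884530, had a fold of 4.22 and a −log10 q of 11.4, in the middle of the list at rank 4703. Summit and centre were 67 bp apart. A BACH2 peak of high fold stood 4.10 kb before this one without JunD, at 30879815 to 30880080, with a fold of 10.7 and a −log10 q of 30.2 (rank 1741).

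Most BACH2 peaks of the Irf4 window belonged to a group of 8 within 28.4 kb, from 30824691 to 30853089. At its heart, a JunD peak of 1803 bp, from 30838938 to 30840740, covered 4 separate BACH2 peaks completely. The strongest of these 4, at 30840164 to 30840719, had a fold of 7.86 and a −log10 q of 48.7 (rank 945). The other 3 were weaker, with −log10 q values from 4.73 to 9.92. They lay at 30839028 to 30839190 (fold 4.11, rank 6983), at 30839338 to 30839627 (fold 2.72, rank 8181) and at 30839738 to 30840039 (fold 4.47, rank 5336). The gaps between these 4 peaks were 110 to 147 bp. The BACH2 summits lay 78 to 708 bp from the JunD centre, and the summit of the strongest was 601 bp away, so this broad JunD peak was not centred on it. The JunD score was 78.8 (rank 2782), below the list median. Only 3 of the 5237 JunD peaks, or 0.0573%, overlapped as many as 4 BACH2 peaks, and 69 JunD peaks were at least this wide.

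Immediately after this broad peak came a second JunD peak, at 30840853 to 30841483, with a score of 61.5 (rank 3975). It missed the strong BACH2 peak by 133 bp and overlapped no other. The other members of the BACH2 group met JunD once more. The BACH2 peak at 30852793 to 30853089, with a fold of 4.45 and a −log10 q of 7.48 (rank 6539), shared 229 bp with a weak JunD peak at 30852861 to 30853573 (score 56.1, rank 4540). Summit and centre were 287 bp apart there. The group had 3 members without JunD. The strongest of them, at 30845857 to 30846233, had a fold of 6.69 and a −log10 q of 18.4 (rank 2992). The others were weak, at 30824691 to 30824852 with a fold of 4.01 (rank 8653) and at 30834569 to 30834738 with a fold of 3.87 (rank 8006). JunD peaks lay 14.1 and 4.20 kb from these, and 4.37 kb from the strongest.

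The strongest JunD peak of both windows had no BACH2 peak. It lay at 30857364 to 30859050, was 1687 bp wide and had a score of 407, which ranked 117 of 5237. The nearest BACH2 peak was the weak one at 30852793, which ended 4.27 kb away. In the strongest JunD quintile 67.8% of peaks were overlapped by BACH2, so this peak belonged to the smaller part of that quintile. Another JunD peak without BACH2 lay at 30904839 to 30905537 and was weak, with a score of 60.3 (rank 4080).

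By count, JunD covered 1 of the 10 BACH2 peaks at Prdm1, or 10% (Wilson 95% interval 1.79 to 40.4%). At Irf4 it covered 7 of the 11, or 63.6% (35.4 to 84.8%). In the whole BACH2 list the share was 29.3%. Both intervals cover the counting of peaks only, and neighbouring peaks of a library are not independent. The Irf4 count rested on the broad JunD peak, which supplied 4 of the 7 overlapped peaks. With every peak set to 200 bp around its summit or centre, JunD covered 27.3% of the BACH2 peaks at Irf4, beside 25.1% in the whole list, and 10% at Prdm1. The share at Irf4 was then near that of the list. In the other direction, BACH2 covered the only JunD peak at Prdm1 and 4 of the 7 at Irf4, or 57.1% (25.0 to 84.2%), against 48.8% of all JunD peaks.

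The strongest BACH2 peaks were also counted on their own. Of the 5 BACH2 peaks of the strongest quintile at Prdm1, 1 was overlapped by JunD, and of the 3 at Irf4, 2 were. In the strongest quintile of the whole list 42.9% were overlapped. These counts are small and no test was made of them. Over the 8 overlapping pairs of both windows, summit and centre were a median of 182.5 bp apart, against 55 bp over all 2677 pairs of the lists. The 4 pairs within the broad JunD peak and the pair at 30852793 included all distances over 100 bp.

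**Figure D3:**
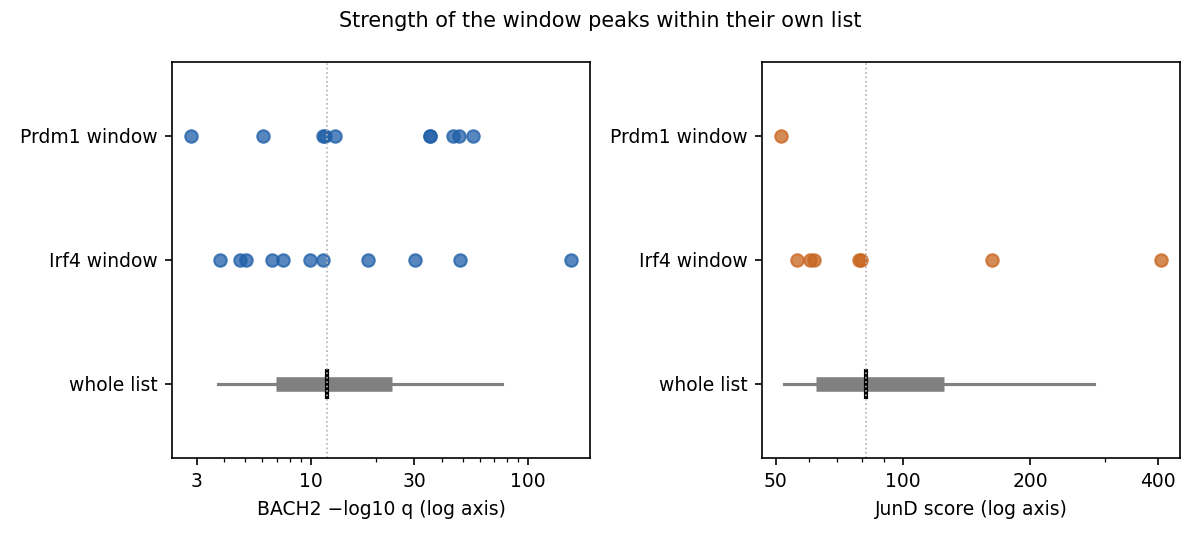
Strength of each window peak (points) on a log axis, as −log10 q for BACH2 (left) and as the authors' score for JunD (right), beside the whole list (grey: thick bar, middle 50%; thin line, percentiles 5 to 95; tick, median). The Prdm1 BACH2 peaks have a median of 24.1 and the Irf4 BACH2 peaks a median of 9.92, on either side of the list median of 11.8, and 2 JunD peaks, both at Irf4, lie above the JunD median.

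As a set, the BACH2 peaks at Prdm1 were stronger than the middle of the list and those at Irf4 weaker. The median rank at Irf4 was 5336 of 9133 by −log10 q and 6767 by fold. At Prdm1 it was 2856.5 by −log10 q and 2890 by fold. Their −log10 q had a median of 24.1 at Prdm1 (range 2.83 to 56.0) and of 9.92 at Irf4 (3.81 to 157), against 11.8 in the whole list. Median fold was 7.23 at Prdm1 and 4.45 at Irf4, against 5.75 in the list. The ranges overlapped widely, since the Irf4 window held the single strongest peak together with many weak ones. The 7 JunD scores at Irf4 ran from 56.1 to 407 with a median of 78.8, close to the list median of 81.6. Peak widths at Prdm1 ran from 162 to 684 bp for BACH2, with a median of 376 bp, and at Irf4 from 162 to 556 bp, with a median of 297 bp. The BACH2 list as a whole had a median width of 267 bp.

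Both windows were crowded with BACH2 peaks compared with other stretches of the same length. Windows of each length were laid every 10 kb along the 20 chromosomes, between the first and last peak of each. Of the 300 kb windows, 1.26% held at least 10 BACH2 peaks, and the median window held 0. At least 1 JunD peak was held by 26.6% of them. Of the 140 kb windows, 0.139% held at least 11 BACH2 peaks and 0.308% held at least 7 JunD peaks. These windows overlap each other and include stretches with no peak of either factor. Such empty windows were 154568 of the 254297 of 300 kb and 187547 of the 254617 of 140 kb. The gene windows were also chosen with earlier results of these data known. The percentages thus describe the lists and are not a test. The group of 7 BACH2 peaks at Prdm1 was matched or passed in size by 22 of 6690 groups of peaks at most 10 kb apart, and the group of 8 at Irf4 by 12. Each of these counts includes the group itself. A single peak with no neighbour that near also counted as a group, and only 1528 of the 6690 held at least 2 peaks. Peaks lying close together were counted separately throughout. With peaks at most 1 kb apart joined, each gene window held 8 BACH2 peaks, and JunD had 1 peak at Prdm1 and 6 at Irf4. The comparisons with other windows and groups, here and in the next paragraph, were not repeated with joined peaks.

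With nearly the same number of BACH2 peaks, the windows held 1 JunD peak at Prdm1 and 7 at Irf4. Among the 937 windows of 300 kb with exactly 10 BACH2 peaks, the median number of JunD peaks was 4 (interquartile range 3 to 6). Of the 937, 6.08% had no more than the 1 seen at Prdm1. Those were 57 windows, which include windows shifted over the Prdm1 window itself, so the percentage is not a share of other loci. Among the 129 windows of 140 kb with exactly 11 BACH2 peaks, the median was 5 JunD peaks (5 to 7), and 26.4% had at least the 7 seen at Irf4. The JunD count of the Prdm1 window was thus low among windows with its number of BACH2 peaks, and that of the Irf4 window was above the median. Windows with more BACH2 peaks also held more JunD peaks. Among the 3200 windows of 300 kb with at least 10 BACH2 peaks, the median number of JunD peaks was 6 (4 to 9), and 2.59% had at most 1. Those were 83 windows, of which 21 touched the Prdm1 window itself and 62 lay in 11 other stretches of the genome. The 3200 windows were not joined into stretches in the same way, so no share of loci can be given. Among the 355 windows of 140 kb with at least 11 BACH2 peaks, the median number of JunD peaks was 7, and 50.4% had at least as many. The windows of 140 kb overlap each other too, and some of the 355 touched the Irf4 window itself. The 26.4% and 50.4% are therefore not shares of other loci either. JunD sites below the caller's threshold are not in the list, and the depth of the JunD library is unknown.

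**Figure D4:**
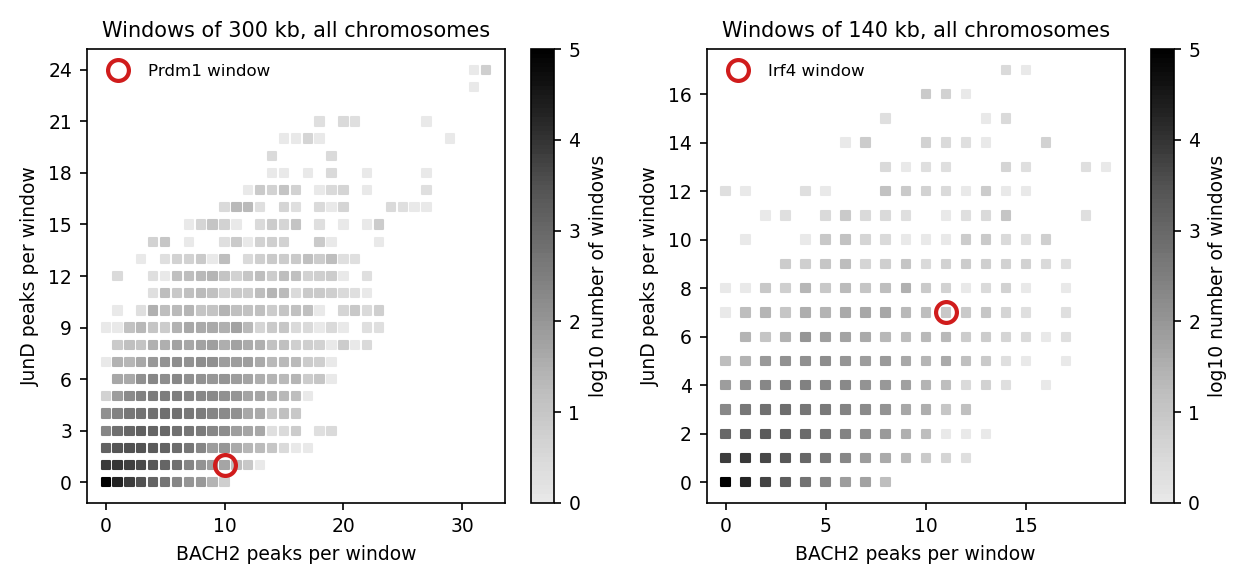
Number of JunD peaks against number of BACH2 peaks in all windows of 300 kb (left) and 140 kb (right), with darker squares for more windows (log10 scale). The red circle marks the window of each gene: Prdm1, with 10 BACH2 peaks and 1 JunD peak, lies near the lower edge, and Irf4, with 11 and 7, lies above the median of 5 JunD peaks in windows with 11 BACH2 peaks.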

How the data were processed

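Per the submitters' processing notes, Bowtie 0.12.9 was the aligner and mm9 (NCBIM37) the build. For the peak caller's version and control, and for any pooling, the entry is "not given in the sources used here". The deposited BACH2 list follows the narrowPeak layout, from which the authors' fold enrichment, −log10 q and summit were read (its −log10 p column was not needed). The JunD list the authors deposited gives a score of unstated scale and no summit, so the peak centre was used. These values served only to describe and rank peaks within their own list, BACH2 by −log10 q with ties by fold. Ranks and quintiles from the lists are not on a common scale. The input library was not analysed here, and read depth is unknown.

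All peaks touching the windows were named. The windows and lists were chosen with earlier results of these data known. An overlap was at least 1 bp. With 1 library per factor, no test was made. Coordinates are mm9, counted from 1. RefSeq promoters on GRCm38.p6 were matched by symbol for 2 of 2 genes. Planned steps that needed mm9 sequence or genes (motifs in peaks, other effector genes) were not run. Overlap counting was tested on simulated data. Python 3.11.15, numpy 2.4.6, pandas 2.3.3, scipy 1.17.1 and matplotlib 3.10.9 were used.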

Additional observations from a re-analysis of the deposited data

How the results depend on the processing

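Of 37 values under the alternatives, 25 lay within the 95% counting interval of the main share or within 1.5 times the main count, rank or percentage, and 12 did not. With 1 to 11 peaks per share these intervals are wide, so lying within them says little about stability. The share of BACH2 peaks overlapped at Irf4, 63.6%, was 18.2% when 50% of both peaks had to overlap (whole list 15.3%). It was 27.3% with summit and centre at most 100 bp apart (whole list 20.5%) and also 27.3% at 200 bp peak width. The share of JunD peaks overlapped at Irf4, 57.1%, was 28.6% when 50% of both peaks had to overlap (whole list 26.6%), and 42.9% with the 100 bp limit and at 200 bp width (whole list 35.8% and 43.7%). Keeping the strongest 50% of each list left 6 BACH2 peaks and 0 JunD peaks at Prdm1, and 4 BACH2 and 2 JunD peaks at Irf4. The share overlapped was then 0% for BACH2 at Prdm1, 0% for BACH2 at Irf4 and 0% for JunD at Irf4, against 22.3% of BACH2 and 38.1% of JunD peaks in the halved lists. The share of JunD peaks at Prdm1 has no value there, and the 0% for BACH2 at Prdm1 was fixed by having no JunD peak left. At Irf4 the cut removed partners that lay just past the middle of their lists. These were the JunD peaks at 30909222 (52.1% down its list) and 30838938 (53.1%), and the BACH2 peak at 30884181 (51.5%). The 0% at Irf4 thus rests on where the cut fell. Narrowing the Irf4 window by 50 kb on each side left 7 BACH2 and 4 JunD peaks. The same change left all 10 BACH2 peaks and the JunD peak at Prdm1. No paired analysis was possible because there was 1 library of each kind. Windows with exactly as many BACH2 peaks were compared after the data were seen. The unknown depth limits what can be said of JunD where no peak was called.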

Other observations

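Beyond the edges, the surroundings of the genes differed. The nearest BACH2 peaks outside the Prdm1 window lay 111 kb below it (43939116 to 43939296, −log10 q 9.36) and 192 kb above it (44541514 to 44541675, −log10 q 2.61). The nearest JunD peaks were 331 kb below and 74.0 kb above. Both edges of the Irf4 window had a BACH2 peak close by. The peak below lay 5.42 kb outside (30774335 to 30774583, −log10 q 10.4), and no JunD peak lay there, the nearest below the window being 68.1 kb outside. The peak above was shared. This BACH2 peak at 30923140 to 30923620 (−log10 q 47.3, rank 990) lay 3.14 kb beyond the edge, inside a JunD peak at 30923021 to 30923671 (score 138, rank 1111). Widening both windows by 50 kb on each side kept 10 BACH2 peaks and 1 JunD peak at Prdm1, and gave 16 BACH2 and 10 JunD peaks at Irf4. The counts of the Irf4 window thus depend on where its edges are set, and those of the Prdm1 window did not change at this width.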
